A study of Mus musculus with 9 samples.

Results

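The collagen genes were taken as every row of the gene count table whose symbol is Col, a number, a and a number. This gave 44 of the table's 23457 rows, namely 11 fibrillar collagens, 6 basement membrane collagens, 6 beaded filament collagens and 21 others. Read counts and FPKM values were available for 9 hearts of adult C57BL/6J mice, 5 wild type (WT) and 4 labelled as carrying a germline Parkin knockout (KO), which concerns every tissue of the animal and not heart muscle alone. Parkin is a ubiquitin ligase that marks damaged mitochondria for removal. RNA came from the apex of the ventricles, although the tissue label names the whole heart, and the mouse hearts accompanied a study of fly heart tubes. Reads over the targeted gene as a whole were not called lower in the hearts labelled KO by edgeR, so the counts do not bear out the genotype labels. The labels do not say which part of the gene is missing, and a partial deletion need not lower such a count. KO below stands for labelled KO, and every direction rests on that label.

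Collagens are trimers of chains with long repeats of glycine and 2 further residues, wound into a triple helix. Fibrillar collagens I, III and V co-assemble into the rope-like fibrils that carry tension between muscle bundles, collagen IV forms the sheet-like network of basement membranes around capillaries and cardiomyocytes, and collagen VI forms beaded filaments between the sheet and the fibrils. In the heart, fibroblasts make most of the fibrillar collagen, and endothelial and mural cells share in making collagen IV. Chains are hydroxylated and folded in the endoplasmic reticulum, secreted, trimmed and crosslinked, and cells bind the finished fibres through integrins and discoidin domain receptors.

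The libraries held 4415183 to 20827699 reads assigned to genes. Mitochondrially encoded genes took 32.6 to 58.2% of assigned reads in WT hearts and 10.04 to 15.4% in KO hearts, and WT hearts 2 and 3 had the fewest assigned reads, 4415183 and 4655742. Fold changes over all genes also followed base composition: across the 12542 tested genes with a known transcript sequence, the log2 fold change rose with the GC content of the transcript (Spearman's rho 0.61 across genes, which are not independent replicates). Each collagen result is therefore given both from the read counts by edgeR and from the same fit with a trend of each heart against GC content and transcript length taken out, called GC-corrected below. On simulated counts with such a GC trend, most calls of the fit without correction were genes simulated as unchanged, and few calls of the corrected fit were. The trend was put in as a fixed slope for each group, of the kind that the correction removes. That outcome was thus built in and does not show what the trend in these data comes from. The corrected fit recovered 26.9% of simulated 1.5-fold changes, against 56.7% without correction, and 82.1 against 83.6% of 2-fold changes. Of the 3805 calls of the uncorrected fit there, 95.7% were unchanged genes. Its 56.7% can thus also count genes called through the trend, and the 2 shares do not compare sensitivity. On counts simulated without the trend, both fits recovered 31.3% of 1.5-fold changes. CPM is the usual depth-scaled read count after TMM scaling, log2 fold changes are KO over WT, p-values are adjusted by Benjamini and Hochberg over all tested genes, and the threshold was 0.05. Each library came from 1 heart.

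In WT hearts the collagens spanned a wide range of levels, compared here per transcript length as FPKM (mean ± SD, n = 5). Col6a2 at 54.8 ± 12.6, Col4a1 at 54.3 ± 13.3 and Col4a2 at 49.5 ± 10.4 FPKM stood highest, and their order among themselves lay within their spread. Col6a1 followed at 28.5 ± 4.83, and Col1a1 (20.1 ± 3.97), Col15a1 (18.9 ± 3.31), Col3a1 (18.2 ± 4.04) and Col1a2 (15.6 ± 3.16) formed the next group, again with overlapping ranges. Col5a1, Col6a3, Col8a1, Col5a3, Col5a2 and Col4a5 lay between 2.57 and 5.09 FPKM. Col18a1 to Col27a1 in that order came next at 0.964 to 1.39 FPKM, and the remaining 25 members had means of at most 0.632 FPKM. Col6a2, Col4a1, Col4a2 and Col6a1 thus had the highest means in WT hearts, with the range of Col6a1 overlapping that of Col1a1, while Col6a3 and the other basement membrane chains lay below Col1a1, Col3a1 and Col1a2.

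Of the 44 members, 30 passed the filter on low counts and were tested. The other 14 were Col2a1, Col6a4, Col6a5, Col8a2, Col9a1, Col9a2, Col9a3, Col10a1, Col11a1, Col17a1, Col19a1, Col24a1, Col25a1 and Col26a1, with totals of 1 to 52 reads over the 9 hearts and at most 14 in any heart. They include the cartilage collagens II, IX and X. Col9a1 was detected by 1 read in 1 heart.

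On the read counts most tested collagens were higher in the KO hearts, and fewer were after the GC correction. By edgeR, 19 of the 30 tested members were higher, 1 was lower (Col6a2) and 10 did not pass, where 26.2% of all 12640 tested genes were higher and 25.2% lower (51.4% in either direction). The median log2 fold change of the tested members was 0.76 against -0.01 over all genes, and 28 of 30 had a positive sign. In 13 of 30, every KO heart lay above every WT heart, as it did in 22.3% of all tested genes. Of the members, 9 were called and at least 2-fold higher, where 7.83% of all genes were. The filter shapes these counts: 5 members (Col7a1, Col11a2, Col13a1, Col22a1 and Col28a1) passed it only through the KO hearts, as they had fewer than 4 WT hearts at its level, and 4 of the 19 higher calls and 4 of these 9 are among them. All of the 5 but Col13a1 are also among the 13 above, which were not counted without them. No member passed only through the WT hearts. Of the other 25 tested members, 15 were higher, 1 was lower and 5 were called and at least 2-fold higher, with a median of 0.73, beside 25.7% higher and 6.68% at least 2-fold higher among the 11998 other tested genes.

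The GC-corrected fit gave a smaller shift. It called 11 of 30 members higher and 2 lower, where 19.6% of 12542 genes were higher and 18.7% lower (38.4% in either direction), and the members' median was 0.39 on the log2 scale. Without the 5 members that passed only through the KO hearts, 8 of 25 were higher and 2 lower, beside 19.7% higher among other genes, with a median of 0.29. The members called in the same direction by both fits numbered 12. Calls for Col1a1, Col1a2, Col4a1, Col4a2, Col5a1, Col5a3, Col13a1 and Col20a1 were lost, and Col27a1 became a lower call. The tested collagens were richer in GC than other genes, with a median of 55.9% against 50.4%, and longer, with a median transcript of 6284 against 3204 bases. Split by GC content, the 5 members between 45 and 50% GC had a median log2 fold change of 0.75 where all genes there stood at -0.24. The 8 members between 50 and 55% stood at 0.57 against 0.19 for all genes there. The 11 members between 55 and 60% stood at 0.60 where all genes there stood at 0.54, and the 6 between 60 and 65% at 1.40 against 0.81. The gap between the members and other genes of like GC content was thus smallest between 55 and 60%, as the plot of fold change against GC content shows. These medians include the members that passed the filter only through the KO hearts. They are Col28a1 between 45 and 50%, Col22a1 between 50 and 55%, and Col13a1 between 55 and 60%. Between 60 and 65% they are Col7a1 and Col11a2, whose changes of 2.14 and 2.33 lie above the median there. The medians by GC content were not computed without them.

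**Figure D1:**
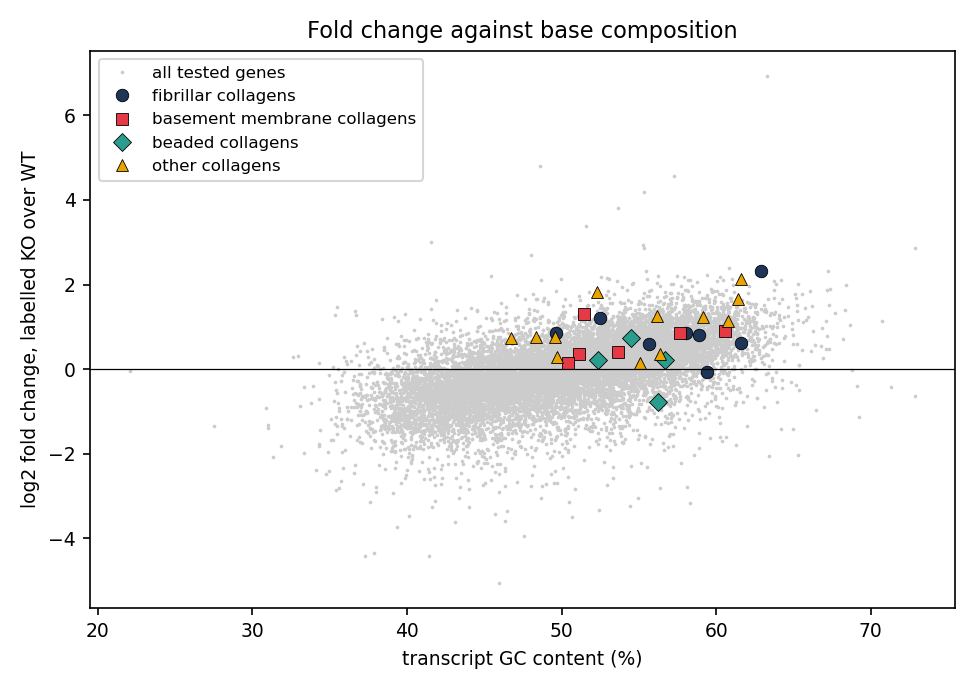
Log2 fold change (KO over WT, read counts) of each tested gene against the GC content of its transcript in percent, with all genes as grey dots and the collagens as coloured symbols by type. All genes rise with GC content (Spearman's rho 0.61), the collagens lie mostly above 0, and Col6a2 and Col27a1 lie below it.

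The authors' FPKM values gave a like picture on another scale. Of the 44 members, 23 had a mean of at least 0.5 FPKM, and limma called 20 of them higher, where 47.2% of all genes were higher and 6.09% lower (53.3% in either direction) and the whole table was shifted by a median of 0.44 on the log2(FPKM + 1) scale. With each heart centred on its median, an alternative chosen after seeing the data, 12 of 23 were higher beside 25.4% of all genes, and their median log2 fold change was 0.57. Members called in the same direction in counts and FPKM numbered 15. The FPKM filter shapes these counts, as its mean was taken over WT and KO hearts together. Col13a1, Col20a1 and Col4a3 passed it only through the KO hearts. Their WT means were 0.268, 0.255 and 0.4635 FPKM, and their KO means 1.02, 0.977 and 0.721 FPKM. Col13a1 and Col20a1 are among the 20 higher calls and among the 15, while Col4a3 was not called. On centred values all of them missed the threshold. The calls were not counted without them.

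The KO hearts were not alike. Members above all 5 WT hearts numbered 14 of 30 in KO heart 1, 20 in KO heart 2, 23 in KO heart 3 and 26 in KO heart 4, and over all tested genes these shares were 30.8, 33.6, 33.4 and 36.2%. These counts include the members that passed the count filter only through the KO hearts, and were not made without them. KO heart 4 was the highest of the 9 hearts in 25 of 30 members, as it was in 25.3% of all genes, and KO heart 1 was the lowest KO heart in 21. Without KO heart 4, 17 members were higher and 1 lower (23.2 and 22.7% of all genes), and without WT hearts 2 and 3, the 2 with the fewest reads, 19 were higher (23.1% of all genes). The spread among KO hearts is thus part of most values below.

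Summed over the 44 members, collagen reads took 0.263, 0.286, 0.372, 0.279 and 0.298% of nuclear reads (reads of genes not encoded in mitochondria) in WT hearts 1 to 5 and 0.3003, 0.362, 0.445 and 0.613% in KO hearts 1 to 4. The means were 0.2995 ± 0.0423% (SD, n = 5) and 0.43 ± 0.136% (SD, n = 4). The groups overlapped, since WT heart 3 lay above KO hearts 1 and 2, and no test was made of this sum. The 95% Wilson interval was widest in relative terms in WT heart 2, at 0.279 to 0.294%, and covers counting error only. As a share of all assigned reads, which the mitochondrial reads dilute unequally, the means were 0.156% and 0.371%. Within the collagen reads, fibrillar chains took 23.1 ± 1.001% in WT and 26.7 ± 1.33% in KO hearts, basement membrane chains 44.7 ± 4.03% and 51.7 ± 1.49%, beaded filament chains 23.2 ± 4.33% and 13.4 ± 1.64%, and the others 8.99 ± 0.857% and 8.22 ± 0.349%. The beaded filament share lay between 11.3 and 15.2% in every KO heart and between 17.4 and 28.95% in every WT heart. It includes Col6a2, which had 1017 and 1192 reads in WT hearts 2 and 3, where Col6a1 had 359 and 477. The share was not computed without Col6a2. Among the WT hearts it rose in the order of falling assigned reads and of rising mitochondrial share, from WT heart 1 to WT heart 2. The part of depth and mitochondrial share in it was not tested.

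**Figure D2:**
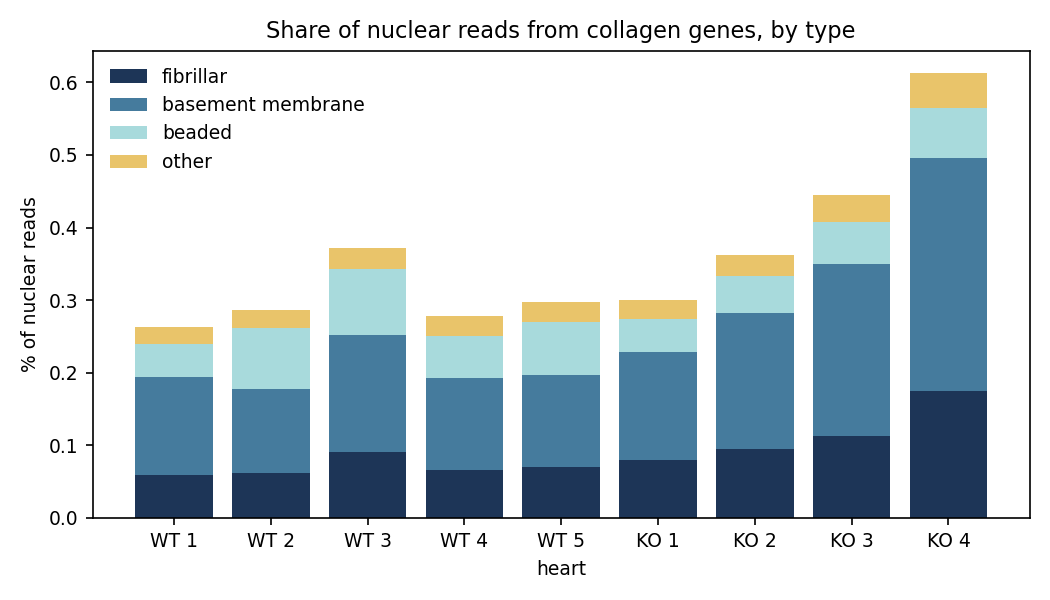
Share of nuclear reads in percent taken by collagen genes in each heart, divided by collagen type. KO heart 4 stands highest at 0.613% and WT heart 1 lowest at 0.263%, and basement membrane chains are the widest band in every heart.

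Bulk RNA cannot tell more collagen-making cells from more collagen RNA in each, so marker genes are given beside these values. The summed level of 12 fibroblast markers ran from 1205 to 1338 CPM in WT and from 1388 to 1664 CPM in KO hearts, but only 2 of the 12 were called higher and 5 lower, Dcn, Lum, Dpt, Cd34 and Ly6a (Gsn and Pi16 were the higher ones). Endothelial markers summed to 929 to 1054 CPM in WT and 833 to 979 CPM in KO hearts (3 of 10 higher, 2 lower). Mural markers summed to 862 to 1109 and 868 to 1243 CPM (3 of 9 higher, 2 lower), and immune markers to 176 to 251 and 196 to 248 CPM (2 of 9 tested higher, 2 lower). Cardiomyocyte markers summed to 59720 to 66210 CPM in WT and 78620 to 89070 CPM in KO hearts (6 of 11 higher, 1 lower), so the heart label matched its defining genes in every library. Epicardial markers stood at 12.9 to 30.9 and 9.58 to 17.6 CPM, cartilage and valve markers at 3.44 to 13.3 and 4.51 to 11.02 CPM with Matn1 and Hapln1 at 0 reads throughout, and Schwann cell markers at 7.397 to 16.65 and 3.64 to 7.37 CPM. Adipocyte markers were at 0 to 1.73 CPM in WT hearts and reached 5.08 CPM in KO heart 4, and skeletal muscle markers stood at 680 to 1166 CPM in WT and 1461 to 2025 CPM in KO hearts. Of the skeletal muscle list, 3 of 4 tested were higher and 0 lower, with the same counts after correction. Myh2 (3.82 ± 0.59, SE), Myh4 (1.76 ± 0.43) and the creatine kinase gene Ckm (0.80 ± 0.16) were called. Tnni2 (0.40 ± 0.37) was not. The summed level was not split by gene, so it does not show how much RNA came from skeletal muscle. Among all tested genes, 26.2% were higher and 25.2% lower, or 19.6 and 18.7% after correction. After correction 3 fibroblast markers were higher and 5 lower, 2 endothelial higher and 1 lower, and 2 mural higher and 0 lower. Of the immune markers 0 were then higher and 3 lower, and of the cardiomyocyte markers 4 were higher and 1 lower. The part of these cell types in the collagen values was not tested.

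Among the fibrillar collagens, 7 of 8 tested were higher, Col27a1 did not pass, and their median was 0.83 on the log2 scale. In the GC-corrected fit 3 of 8 were higher (Col3a1, Col5a2 and Col11a2), 1 was lower, and the median was 0.24. Over all genes 26.2% were higher and 25.2% lower, or 19.6 and 18.7% after correction. Col11a2 passed the count filter only through the KO hearts and is among the higher calls of both fits. These counts and medians were not made without it. Col3a1 (chr1:45311538-45349706; coordinates are RefSeq gene bounds on GRCm38.p6, the reference release behind mm10, which the submitters' processing notes name) encodes the single chain of collagen III, the fine, extensible fibril collagen of vessels and heart. It stood at 111, 105, 134, 124 and 121 CPM in WT hearts 1 to 5 and at 166, 193, 283 and 454 CPM in KO hearts 1 to 4. Every KO heart lay above every WT heart, and KO heart 4 lay far above the other 3. The log2 fold change was 1.20 ± 0.23 (SE, adjusted p = 0.000518), and the GC-corrected value was 1.04 ± 0.21 (adjusted p = 0.00182). Without KO heart 4 it was 0.85 (adjusted p = 0.000682).

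Collagen I is the main fibril former. Its Col1a1 chain (chr11:94936224-94953042) stood at 96.4, 101, 158, 86.7 and 123 CPM in WT and 125.9, 161, 190.4 and 314 CPM in KO hearts. WT heart 3 lay above KO heart 1, and the other KO hearts lay above all WT hearts. The change was 0.81 ± 0.23 (SE, adjusted p = 0.00829) on the log2 scale, and with GC and length trends removed it was 0.17 (adjusted p = 0.512). Col1a2 (chr6:4505618-4541543), the partner chain, stood at 78.1, 92.96, 134, 90.1 and 84.03 CPM in WT and 116, 127, 134 and 201 CPM in KO hearts. Here WT heart 3 lay above KO hearts 1 and 2 and level with KO heart 3. Its log2 fold change was 0.60 ± 0.18 (SE, adjusted p = 0.01203), and the GC-corrected one was 0.18 (adjusted p = 0.438). Both collagen I calls were thus made on counts and not after the correction.

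Collagen V sits inside collagen I fibrils and limits their width. Col5a1 (chr2:27886381-28039510) read 43.4, 46.5, 58.05, 46.5 and 64.2 CPM in WT and 70.97, 75.2, 88.6 and 138 CPM in KO hearts, with no overlap between groups. Its log2 fold change was 0.85 ± 0.19 (SE, adjusted p = 0.001604), and 0.30 (adjusted p = 0.118) after correction. Col5a2 (chr1:45374331-45503282), an AT-rich member at 49.6% GC and a neighbour of Col3a1 on chromosome 1, read 17.4, 14.6, 31.98, 25.0 and 20.5 CPM in WT and 25.7, 33.1, 41.4 and 58.5 CPM in KO hearts. KO heart 1 lay within the WT range and the other 3 above it. The change was 0.86 ± 0.23 (SE, adjusted p = 0.00642), and it was called after correction as well, at 1.0 (adjusted p = 0.00464). Col5a3, a chain of lesser abundance, rose from 24.3 ± 1.54 CPM (SD, n = 5) to 37.4 ± 12.6 CPM (SD, n = 4), a log2 fold change of 0.63 ± 0.20 (SE, adjusted p = 0.01404). That call was lost without KO heart 4 (0.44, adjusted p = 0.05502), and the corrected value had the opposite sign, -0.13 (adjusted p = 0.545).

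Col11a2 (chr17:34038919-34066684), a chain of the cartilage fibril collagen XI, passed the count filter only through the KO hearts. It had 1 to 16 reads in WT hearts and 33 to 65 in KO hearts. Its level was 0.717, 0.347, 0.296, 0.351 and 0.464 CPM in WT and 1.85, 2.23, 1.67 and 4.65 CPM in KO hearts, so that all KO hearts lay above all WT hearts. The change was 2.33 ± 0.41 (SE, adjusted p = 0.0003402), or 1.53 (adjusted p = 0.00295) after correction, from few reads. Col27a1, a fibrillar collagen best known from cartilage, stood at 9.07 ± 2.41 CPM (SD, n = 5) and 8.38 ± 1.695 CPM (SD, n = 4). Its log2 fold change was -0.07 ± 0.22 (SE, adjusted p = 0.8195), and the GC-corrected one passed as lower, -0.68 (adjusted p = 0.0201).

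**Figure D3:**
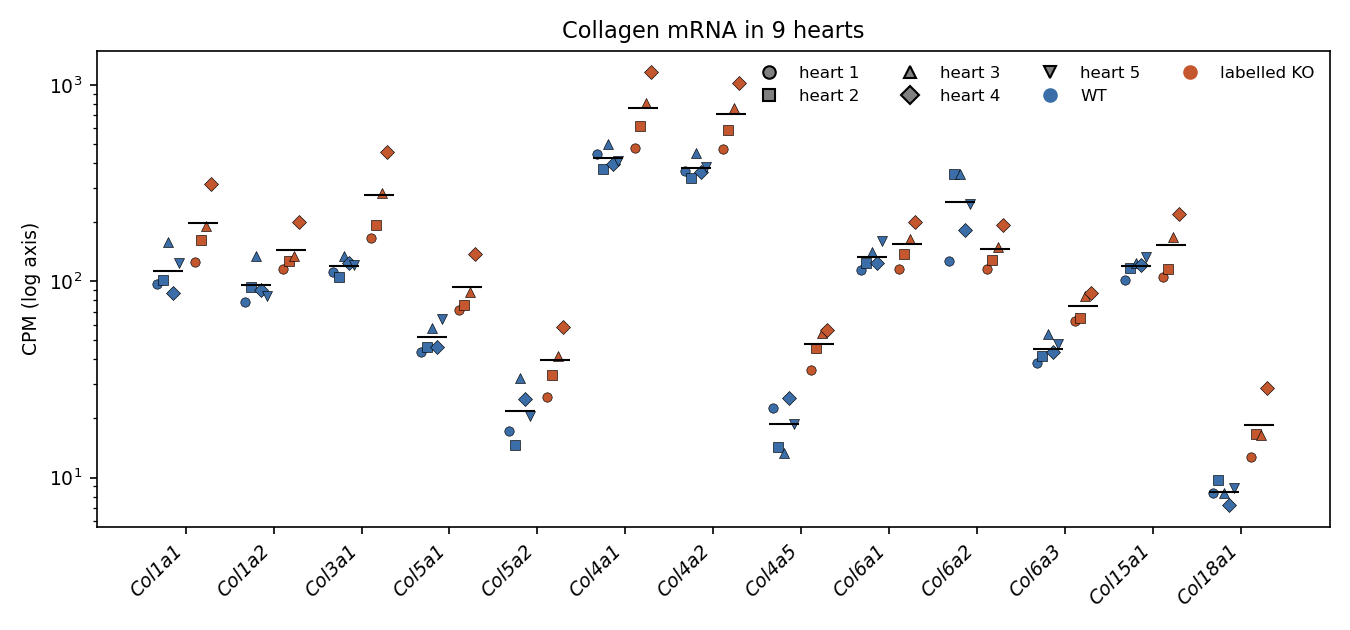
Level of 13 collagens in each heart, in CPM on a log axis, with a line at each group's mean. KO heart 4 is the highest point for Col3a1 (454 CPM), Col4a1 (1158 CPM) and most others, while for Col6a2 WT hearts 2 and 3 stand highest at 353 CPM.

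Basement membrane collagens came in pairs of genes that share a start region, and 3 of 6 were higher (Col4a1, Col4a2 and Col4a5), the median being 0.62 on the log2 scale. After the correction 1 of 6, Col4a5, was called, and the median was 0.25. Over all genes 26.2% were higher on counts and 19.6% after correction. Col4a1 (chr8:11198423-11312889, minus strand) and Col4a2 (chr8:11312805-11449287, plus strand) encode the 2 chains of the common collagen IV trimer and lie head to head on chromosome 8. Their RefSeq gene bounds overlap by 85 bases. Their start windows are printed because the genes moved together. Each is the RefSeq table's sequence from 250 bases before to 50 bases after the transcript start it uses on GRCm38.p6 (for Col4a1 a start 63 bases inside the gene bound given above), read 5′ to 3′ on the gene's own strand, at chr8:11312777-11313076 and chr8:11312555-11312854. Capitals mark CCAAT and GGGCGG (the core of a GC box), on either strand.
Col4a1: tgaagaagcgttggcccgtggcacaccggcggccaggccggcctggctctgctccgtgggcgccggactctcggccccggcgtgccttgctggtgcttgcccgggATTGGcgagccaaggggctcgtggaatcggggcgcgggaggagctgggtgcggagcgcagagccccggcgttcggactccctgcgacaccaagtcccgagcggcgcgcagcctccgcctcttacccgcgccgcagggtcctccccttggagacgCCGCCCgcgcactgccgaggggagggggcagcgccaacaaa
Col4a2: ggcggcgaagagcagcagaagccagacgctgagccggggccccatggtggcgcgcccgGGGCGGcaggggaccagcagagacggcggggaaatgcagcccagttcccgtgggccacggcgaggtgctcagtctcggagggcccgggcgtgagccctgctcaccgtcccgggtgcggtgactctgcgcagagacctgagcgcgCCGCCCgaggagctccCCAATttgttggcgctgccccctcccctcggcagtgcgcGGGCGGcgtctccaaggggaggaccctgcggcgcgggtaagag
The windows share 78 bases, so 1 capitalised GGGCGG of the Col4a2 window is the CCGCCC of the Col4a1 window. Both are rich in GC (74.0 and 73.7%), and a search on both strands found CCAAT and GGGCGG in each and TATAAA in neither. Among the other RefSeq windows of the same length, 37.4% hold CCAAT, 35.6% GGGCGG and 13.6% TATAAA. Of the 44 members, 35 had windows in the table, and of these 13 hold CCAAT, 22 GGGCGG and 5 TATAAA. A match describes the letters only and shows no binding.

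Col4a1 stood at 445, 375, 501, 393 and 408 CPM in WT hearts 1 to 5 and at 475, 616, 807 and 1158 CPM in KO hearts 1 to 4. KO heart 1 lay inside the WT range, just below WT heart 3. For Col4a2 the levels were 364, 336, 448, 358 and 380.1 CPM in WT and 472, 588, 761 and 1017 CPM in KO hearts. Here all KO hearts lay above all WT hearts. The log2 fold changes were 0.85 ± 0.20 (SE, adjusted p = 0.002795) for Col4a1 and 0.91 ± 0.18 (SE, adjusted p = 0.000878) for Col4a2. After correction they were 0.29 (adjusted p = 0.152) and 0.19 (adjusted p = 0.301). The Col4a1 to Col4a2 ratio of reads was 1.22, 1.12, 1.12, 1.098 and 1.07 in WT and 1.01, 1.05, 1.06 and 1.14 in KO hearts, with overlapping groups. Its difference was -0.08 on the log2 scale (exact permutation test over every split of the 9 hearts, two-sided, p = 0.143, adjusted p = 0.214 over the 6 chain ratios tested). No difference between the 2 chains in their change was detected by this test.

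Col4a5 (chrX:141475370-141689236), a chain of the minor collagen IV networks and the gene most often affected in Alport syndrome, was the minor chain called higher in both fits. It stood at 22.6, 14.2, 13.3, 25.3 and 18.7 CPM in WT and 35.5, 45.9, 54.1 and 56.4 CPM in KO hearts. The lowest KO heart lay above the highest WT heart. Its log2 fold change of 1.29 ± 0.19 (SE, adjusted p = 7.60e-05) hardly moved after correction, at 1.26 ± 0.17 (adjusted p = 0.000132). The other minor chains did not pass: Col4a3 at 0.13 ± 0.28 (adjusted p = 0.706), Col4a4 at 0.36 ± 0.20 (adjusted p = 0.147) and Col4a6 at 0.40 ± 0.33 (adjusted p = 0.324). Col4a3 stood at 4.87 ± 1.42 and 5.05 ± 1.91 CPM, Col4a4 at 9.49 ± 1.402 and 12.01 ± 3.72 CPM, and Col4a6 at 1.08 ± 0.523 and 1.56 ± 0.242 CPM in WT and KO hearts. After correction the 3 stood at 0.21 (adjusted p = 0.571), 0.38 (adjusted p = 0.152) and 0.19 (adjusted p = 0.675). Without KO heart 1, Col4a4 did pass on counts (0.50, adjusted p = 0.0368). Whether Col4a5 differed from its partner chains in its change was not tested.

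Beaded filament collagens moved apart. Of 4 tested, Col6a3 was higher, Col6a2 lower, and Col6a1 and Col6a6 did not pass, with a median log2 fold change of 0.22 (-0.08 after correction, with the same 2 calls). Over all genes 26.2% were higher and 25.2% lower, or 19.6 and 18.7% after correction. Collagen VI is built from 1 chain each of Col6a1, Col6a2 and Col6a3. Col6a1 (chr10:76708792-76726044) stood at 114, 124, 141, 123 and 160.1 CPM in WT and 116, 138, 164 and 200.2 CPM in KO hearts, which overlap. Its log2 fold change was 0.22 ± 0.16 (SE, adjusted p = 0.254), and -0.29 (adjusted p = 0.0978) after correction. Col6a2 (chr10:76595756-76623630), its neighbour on chromosome 10, stood at 127, 353, 353, 182 and 248 CPM in WT and 115, 129, 149.5 and 193 CPM in KO hearts. WT hearts 2 and 3, which had the fewest reads, were the highest, and WT hearts 1 and 4 lay within the KO range. The change was -0.78 ± 0.26 (SE, adjusted p = 0.0199), and -1.26 ± 0.26 (adjusted p = 0.00213) after correction. Without WT hearts 2 and 3 it was -0.35 (adjusted p = 0.2196), and the call was also lost without WT heart 2, WT heart 3, KO heart 1 or KO heart 2 alone (-0.72 to -0.64, adjusted p = 0.0541 to 0.0582). On median-centred FPKM it did not pass either (-0.61, adjusted p = 0.0875).

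Col6a3 (chr1:90766860-90844001), the largest chain, stood at 38.1, 41.6, 53.9, 43.6 and 47.9 CPM in WT and 62.9, 64.8, 84.4 and 86.97 CPM in KO hearts, with no overlap. The change was 0.74 ± 0.14 (SE, adjusted p = 0.000579), and it was called after correction too, at 0.46 (adjusted p = 0.0112). Col6a6, a chain that can take the place of Col6a3, stood at 8.56 ± 2.701 CPM (SD, n = 5) and 10.1 ± 1.83 CPM (SD, n = 4) with a log2 fold change of 0.21 ± 0.21 (SE, adjusted p = 0.412), and 0.13 (adjusted p = 0.662) after correction.

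Ratios of reads within a heart need no scaling for its depth, and the collagen VI ratios differed between groups. Col6a1 to Col6a2 stood at 0.902, 0.353, 0.4004, 0.678 and 0.647 in WT and at 1.01, 1.07, 1.096 and 1.04 in KO hearts. The KO hearts were tightly grouped and all above the WT hearts, of which WT hearts 2 and 3 were lowest. The difference was 0.91 on the log2 scale (exact permutation p = 0.0159, adjusted p = 0.0476). Among the WT hearts the Col6a1 to Col6a2 ratio fell in the order of assigned reads, from WT heart 1 (20827699 reads) to WT heart 2 (4415183 reads). It also fell in the order of rising mitochondrial share, from 32.6 to 58.2%, while KO hearts had 10.04 to 15.4%. The part of depth and mitochondrial share in this ratio was not tested. Col6a1 to Col6a3 stood at 2.996, 2.98, 2.62, 2.82 and 3.34 in WT and at 1.84, 2.12, 1.94 and 2.302 in KO hearts, so all KO hearts lay below all WT hearts. That difference was -0.53 (exact permutation p = 0.00794, below which 5 against 4 hearts cannot go, adjusted p = 0.0476). After GC and length correction the differences were 0.86 and -0.74 (exact permutation, adjusted p = 0.0317 and 0.0238). With any 1 heart left out, both differences kept their sign, at 0.74 to 1.08 and -0.58 to -0.48, and neither passed after adjustment (exact permutation, adjusted p = 0.0571 to 0.161 and 0.0571 to 0.107). With 8 hearts the smallest exact permutation p is 0.0286 or 0.0179, and 2 ratios of 6 at that value cannot pass after adjustment, so these p-values say nothing on stability. GC contents of Col6a1, Col6a2 and Col6a3 are near each other, at 56.7, 56.2 and 54.5%. Their transcript lengths, also part of the correction, are not, at 4100, 4653 and 10106 bases.

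Of the fibrillar ratios, Col3a1 to Col1a1 stood at 1.15, 1.04, 0.8503, 1.43 and 0.981 in WT and 1.32, 1.196, 1.49 and 1.45 in KO hearts. The groups overlapped through WT heart 4, and the difference of 0.34 did not pass (exact permutation p = 0.0635, adjusted p = 0.127). After correction for GC content, which is 52.5% for Col3a1 and 58.9% for Col1a1, it was 0.79 and passed (exact permutation, adjusted p = 0.0238). Col1a1 to Col1a2 differed by 0.17 (exact permutation, adjusted p = 0.352) and Col5a1 to Col5a2 by -0.03 (exact permutation, adjusted p = 0.897). After correction the latter was -0.67 (exact permutation, adjusted p = 0.0595). The 2 chains of collagen I thus kept ratios of 0.962 to 1.47 in WT and 1.09 to 1.56 in KO hearts.

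**Figure D4:**
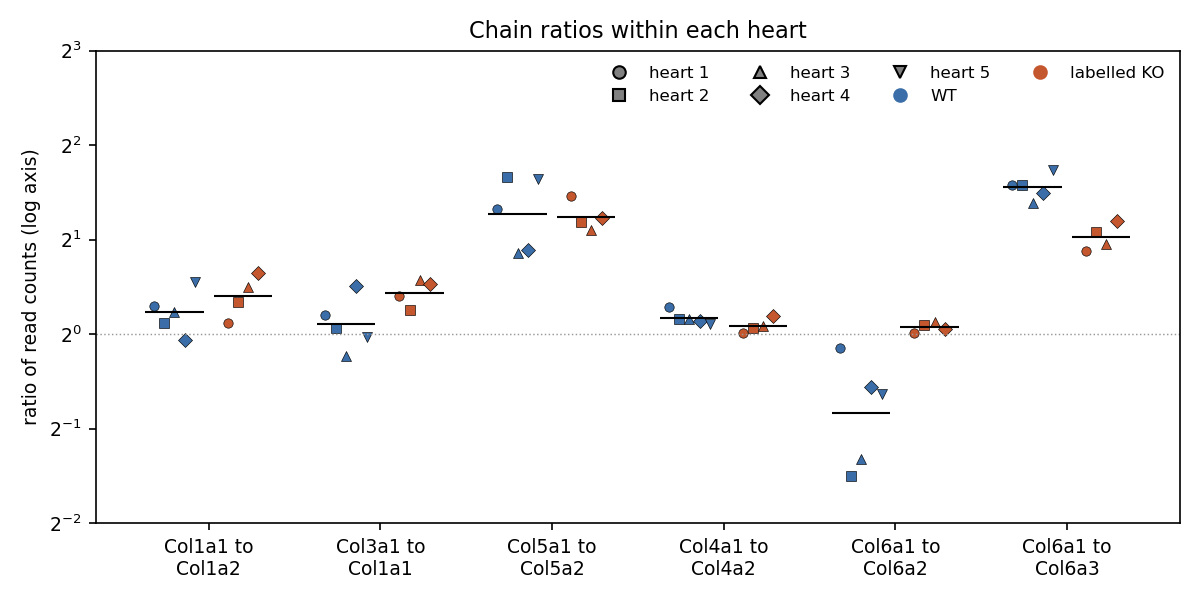
Ratio of reads of 2 collagen chains within each heart, on a log axis, for the 6 ratios tested, with a line at the geometric mean of each group. Col6a1 to Col6a2 is between 1.01 and 1.10 in the KO hearts and at most 0.902 in the WT hearts, while Col4a1 to Col4a2 overlaps between the groups.

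Over all genes 26.2% were higher on counts and 19.6% after correction. Among the other types, 8 of 12 tested were higher and 4 did not pass, with a median log2 fold change of 0.96 (6 of 12 and 0.83 after correction). Of these 12, Col7a1, Col13a1, Col22a1 and Col28a1 passed the count filter only through the KO hearts. All of them but Col28a1 are among the 8 higher calls, and Col7a1 and Col22a1 are among the 6 after correction. The filter thus shapes these counts and medians, and the separation of the groups in those genes. The multiplexins are basement membrane collagens with short interrupted helices, whose ends can be cut off as endostatin-like fragments. Col18a1 (chr10:77052178-77166530), the source of endostatin, stood at 8.29, 9.71, 8.29, 7.23 and 8.82 CPM in WT and 12.7, 16.6, 16.4 and 28.5 CPM in KO hearts. The WT hearts were close together and every KO heart lay above them. The change was 1.15 ± 0.21 (SE, adjusted p = 0.000433), or 0.42 (adjusted p = 0.0377) after correction. Col15a1 (chr4:47207655-47313167), its relative in muscle and capillary basement membranes, stood at 102, 117, 124, 121 and 134 CPM in WT and 106, 115, 168 and 219 CPM in KO hearts. KO hearts 1 and 2 lay within the WT range and KO hearts 3 and 4 above it. Its log2 fold change of 0.35 ± 0.18 (SE, adjusted p = 0.123) did not pass, and the corrected value was -0.13 (adjusted p = 0.538). Without KO heart 1 it did pass (0.49, adjusted p = 0.0273).

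Fibril-associated collagens decorate fibrils without forming them, and 4 of 5 tested were higher (3 of 5 after correction). Col16a1 (chr4:130047817-130099277) stood at 4.44, 2.77, 3.26, 3.301 and 5.22 CPM in WT and 10.2, 10.5, 10.6 and 18.9 CPM in KO hearts. KO hearts 1 to 3 were close together, KO heart 4 was higher, and all lay above the WT hearts. The change was 1.65 ± 0.23 (SE, adjusted p = 6.68e-05), and 0.90 ± 0.17 (adjusted p = 0.000963) after correction. Col22a1 (chr15:71795795-72150979), found at junctions of muscle and tendon, had 0 to 11 reads in WT hearts and 20 to 25 in KO hearts. At 0.493, 0.694, 0, 0.281 and 0.232 CPM in WT and 1.09, 1.505, 1.16 and 1.43 CPM in KO hearts, the groups did not overlap. Its change was 1.82 ± 0.41 (SE, adjusted p = 0.00186), or 1.74 (adjusted p = 0.00375) after correction. Col20a1 had 0 to 35 reads in WT hearts and 46 to 63 in KO hearts, or 1.57, 1.39, 0, 1.12 and 1.97 CPM in WT and 2.99, 2.77, 2.78 and 4.37 CPM in KO hearts, again without overlap. The log2 fold change was 1.25 ± 0.35 (SE, adjusted p = 0.00824), and the corrected one, 0.82 (adjusted p = 0.0623), missed the threshold. Col12a1, a fibril surface collagen of tissues under strain, stood at 1.39 ± 0.288 CPM in WT and 2.296 ± 0.471 CPM in KO hearts, a change of 0.77 ± 0.28 (SE, adjusted p = 0.0335). This call was lost without WT heart 1 or any 1 of KO hearts 2, 3 and 4 (0.56 to 0.79, adjusted p = 0.0580 to 0.124), while the corrected value was 1.03 (adjusted p = 0.0108). Col14a1, which stood at 7.65 ± 1.81 and 9.71 ± 3.199 CPM, did not pass (0.29 ± 0.24, adjusted p = 0.321). Its corrected value was 0.40 (adjusted p = 0.184).

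Col7a1 (chr9:108953586-108984875) forms the anchoring fibrils that tie basement membrane to stroma in skin, and in these hearts it had 0 to 9 reads in WT hearts and 20 to 37 in KO hearts. The levels were 0.404, 0.347, 0, 0.562 and 0.116 CPM in WT and 1.28, 1.204, 1.87 and 2.08 CPM in KO hearts, without overlap. Its change was 2.14 ± 0.43 (SE, adjusted p = 0.000828), or 1.45 (adjusted p = 0.0149) after correction. Col8a1 makes the hexagonal network collagen of vessel walls and rose from 20.5 ± 4.096 CPM (SD, n = 5) to 33.8 ± 9.33 CPM (SD, n = 4). The log2 fold change was 0.73 ± 0.19 (SE, adjusted p = 0.00583), and it was larger after correction, at 1.08 (adjusted p = 0.00126) (GC content 46.8%). Col13a1, a transmembrane collagen of cell contacts and neuromuscular junctions, stood at 1.12, 0.347, 0.592, 0.702 and 1.51 CPM in WT and 1.47, 1.99, 2.73 and 3.01 CPM in KO hearts. KO heart 1 lay just below WT heart 5. The change was 1.24 ± 0.35 (SE, adjusted p = 0.00798), and 0.62 (adjusted p = 0.137) after correction. Col23a1 (0.14 ± 0.30, adjusted p = 0.718), at 1.79 ± 0.609 and 1.82 ± 0.472 CPM, and Col28a1 (0.75 ± 0.40, adjusted p = 0.126), at 0.461 ± 0.316 and 0.973 ± 0.219 CPM, did not pass, although all KO hearts were above all WT hearts for Col28a1. After correction Col23a1 stood at -0.17 (adjusted p = 0.693) and Col28a1 at 0.84 (adjusted p = 0.102).

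**Figure D5:**
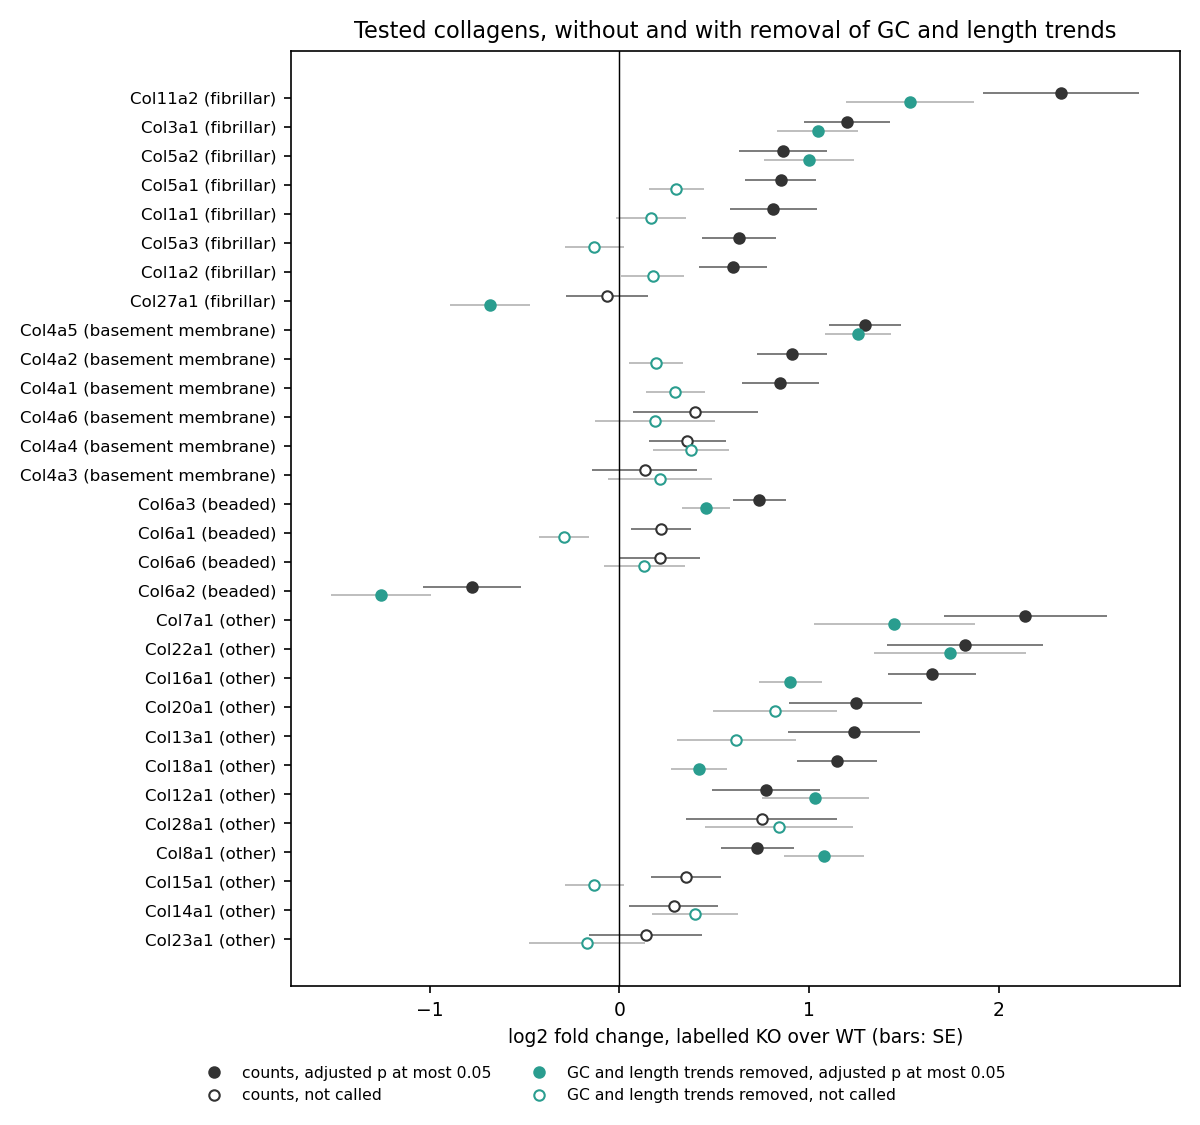
Log2 fold change (KO over WT, bars ± SE) of the 30 tested collagens by type, from read counts in dark and after removal of GC and length trends in green, with filled symbols at an adjusted p of at most 0.05. Col3a1, Col4a5 and Col22a1 keep their place, while Col1a1, Col4a2 and Col5a3 move to near 0 after correction.

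The libraries were not strand-specific, and exons of 13 members overlap another annotated gene by 14 to 274 bases, Col4a1 with Col4a2 among them, so reads there cannot be assigned to one of the pair by strand.

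A sequence feature outside the choice of members was also looked at. The miR-29 family is known to repress collagen transcripts, in heart fibroblasts among others, through sites in their 3′ UTRs. Its 3 mature members are printed from RefSeq (GRCm38.p6), with the seed that they share, bases 2 to 8, in capitals.
mmu-miR-29a-3p: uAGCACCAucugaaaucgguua
mmu-miR-29b-3p: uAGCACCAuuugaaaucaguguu
mmu-miR-29c-3p: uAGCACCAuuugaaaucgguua
The reverse complement of the seed in DNA letters, TGGTGCT, was searched on the sense strand of 1 transcript per gene. Of 42 members with an annotated 3′ UTR, 24 (57.1%) held it, against 12.8% of 20889 other genes, or 0.696 against 0.105 sites per kb of 3′ UTR. The fibrillar type had it in 9 of 11 and the basement membrane type in 6 of 6, the beaded type in 1 of 5 and the others in 8 of 20. The chosen transcripts of Col18a1 and Col6a3 carry no 3′ UTR. Sites of 6 members described above are shown as 22 bases of the transcript, 5′ to 3′, with the match in capitals.
Col1a1: tgggaaggaatttcTGGTGCTa
Col3a1: tcaaaatgtctcaaTGGTGCTa
Col5a2: ttttcttttaatgaTGGTGCTa
Col4a1: ccaccgtcacaacaTGGTGCTa
Col4a5: actgctcccaccaaTGGTGCTa
Col6a2: agcacaaatgggggTGGTGCTa
Col1a2 and Col6a1, the partner chains of 2 of these, hold no match in their 3′ UTRs. Of the 18 tested members with a site, 12 were higher and 1 lower, and their median was 0.83. Of the 10 tested members with a 3′ UTR and no site, 5 were higher, with a median of 0.67. After correction the counts were 7 higher and 2 lower against 2 higher, and the medians were 0.30 and 0.51, so the order of the medians turned. The difference between these classes was not tested, and the miRNAs themselves were not measured by these libraries.

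Genes that fold, process, bind or break down collagen, or that accompany it, were read from the same fit, in lists written with earlier results of these data known. Of the 91 rows, 85 were tested, with 36 higher and 13 lower and a median log2 fold change of 0.33 (22 higher, 10 lower and 0.12 after correction). Among all tested genes, 26.2% were higher and 25.2% lower, or 19.6 and 18.7% after correction, which stand beside each list below. The receptors (2 of 8 higher) and the breakdown genes (3 of 10 higher) lay near the share higher on counts.

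Collagen folding and hydroxylation had 11 of 19 higher and 2 lower, with a median of 0.70 (8 higher, 3 lower and 0.24 after correction). P4ha2, a catalytic subunit of prolyl 4-hydroxylase, stood at 24.01 ± 1.69 CPM (SD, n = 5) in WT and 46.03 ± 4.05 CPM (SD, n = 4) in KO hearts, a log2 fold change of 0.93 ± 0.12 (adjusted p = 2.92e-05), and 0.62 (adjusted p = 0.000334) after correction. Leprel4, a partner of the lysyl and prolyl 3-hydroxylases, rose from 9.16 ± 3.83 to 24.3 ± 4.26 CPM, by 1.41 ± 0.23. Lepre1, a prolyl 3-hydroxylase, and Plod3, a lysyl hydroxylase with glycosyl transferase activity, rose by 1.04 ± 0.16 and 0.95 ± 0.15. All 4 were also higher after correction. Serpinh1, the collagen chaperone Hsp47, rose by 1.04 ± 0.17, from 123 ± 10.3 to 253 ± 79.03 CPM. Creb3l1, a transcription factor of the secretory pathway, fell by 1.05 on the log2 scale, and Plod2 fell by 0.80. After correction Creb3l1 was still lower, at -1.72 (adjusted p = 0.000302), Plod2 was not called (-0.26, adjusted p = 0.211), and Serpinh1 stood at 0.55 (adjusted p = 0.00925). Serpinh1, Creb3l1 and Plod2 were named after their values were seen.

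Procollagen processing and crosslinking had 5 of 15 higher and 1 lower, with a median of 0.35 (2 higher, 2 lower and 0.03 after correction). Pcolce, an enhancer of procollagen C-proteinase, stood at 30.2 ± 5.02 CPM in WT and 60.6 ± 13.3 CPM in KO hearts, a change of 0.996 ± 0.16 that stayed called after correction at 0.34 (adjusted p = 0.0287). Tgm2, a crosslinking transglutaminase, and Loxl1, a lysyl oxidase relative, rose by 0.69 ± 0.13 and 0.78 ± 0.17, and were not called after correction (0.16 and 0.03). Tll1, a proteinase of the C-propeptide, fell by 2.68 on the log2 scale, from 2.58 ± 2.01 to 0.302 ± 0.161 CPM, and was lower after correction too. Lox, the founding lysyl oxidase, did not pass, at -0.60 ± 0.29.

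Collagen receptors had 2 of 8 higher and 3 lower, with a median of -0.06 (1 higher, 1 lower and 0.03 after correction). The discoidin domain receptors moved in opposite directions: Ddr1, mainly of epithelial cells, stood at 18.4 ± 4.49 and 36.9 ± 11.3 CPM (1.01 ± 0.21), and Ddr2, mainly of fibroblasts, at 38.6 ± 7.65 and 20.7 ± 3.496 CPM (-0.88 ± 0.16). Ddr1 was not called after correction and Ddr2 was, at -0.38 (adjusted p = 0.0376). Mrc2, an endocytic receptor that clears collagen fragments, rose by 1.13 ± 0.16, and 0.52 (adjusted p = 0.00347) after correction. Itgb1, the shared β chain of the collagen integrins, was lower on counts (-0.49 ± 0.12) and not after correction (-0.03).

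Collagen breakdown and its inhibitors had 3 of 10 higher and 1 lower, with a median of -0.02 (2 higher, 2 lower and 0.07 after correction). The 3 higher genes were Mmp2, a gelatinase, and the inhibitors Timp1 and Timp4, with changes of 0.45 ± 0.15, 1.19 ± 0.24 and 0.76 ± 0.20. Timp2, an inhibitor that also helps activate Mmp2, was lower at -0.74 ± 0.14. All but Mmp2 were called after correction, and the Mmp2 call was also lost without KO heart 2 (0.40, adjusted p = 0.0586).

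Basement membrane partners had 7 of 14 higher and 1 lower, with a median of 0.33 (4 higher and 0.19 after correction). Laminins Lama5 and Lamb2 rose from 118 ± 15.98 to 349 ± 56.8 CPM and from 259 ± 46.1 to 609.6 ± 76.4 CPM, by 1.56 ± 0.14 and 1.23 ± 0.15 (adjusted p = 4.11e-06 and 1.83e-05). Lamb3 rose by 1.73 ± 0.19. These 3 were called after correction, at 0.94, 0.63 and 1.34. Hspg2, the perlecan core protein, rose by 0.92 ± 0.17 on counts only, with a corrected value of 0.22 (adjusted p = 0.134). The lower gene was Lama2, the muscle laminin chain, at -0.74 ± 0.22, and it was not called after correction (-0.46, adjusted p = 0.0692).

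TGF-β signalling and matrix response genes had 8 of 19 higher and 5 lower, with a median of 0.32 (5 higher, 2 lower and 0.12 after correction). Ltbp2, a microfibril protein, and Tnc, tenascin C, rose from low levels, 1.93 ± 0.921 to 7.998 ± 4.67 CPM and 2.45 ± 0.794 to 6.57 ± 2.44 CPM, by 1.96 ± 0.37 and 1.52 ± 0.32. Both were called after correction. Ltbp4, which tethers latent TGF-β, rose by 0.91 ± 0.16 on counts and stood at 0.12 (adjusted p = 0.337) after correction. Smad4, the common partner of the receptor Smads, fell by 0.65 on the log2 scale, and -0.55 (adjusted p = 0.00333) was the corrected value. Postn, periostin of activated fibroblasts, named after its value was seen, was lower on counts (-0.87 ± 0.20) and not called after correction (-0.37, adjusted p = 0.08855). Tgfb1, the ligand, stood at -0.01 ± 0.17 (adjusted p = 0.974) and passed as lower after correction.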

How the data were processed

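Polyadenylated RNA of 5 WT and 4 labelled KO hearts was sequenced as non-strand-specific, single-end libraries, per the labels' protocols. The authors deposited read counts per gene and FPKM values. The submitters' processing notes name TopHat2 2.0.10, Bowtie2, HTSeq, Cufflinks 2.1 and mm10, without their roles. Which gene annotation and strand setting were used is not given in the sources used here. Depth was 4415183 to 20827699 assigned reads per heart, which leaves few reads behind the rarest members. All 9 hearts were compared by group.

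Counts were tested with edgeR 4.0.16 (filterByExpr by group with a minimum count of 10, TMM, quasi-likelihood F test, no replicate term) over all 12640 genes passing the filter. Standard errors come from the F statistic. GC-corrected fits add as offsets each heart's lowess trend (span 0.3) against GC content and then log2 length of GENCODE transcripts. FPKM values were tested with limma 3.58.1 as log2(FPKM + 1), leaving out genes whose mean FPKM was under 0.5. Chain ratios used an added count of 0.5 and exact permutation tests in SciPy 1.17.1. Both fits were run on simulated data: with a GC trend in the counts, most calls of the uncorrected fit were unchanged genes, while few calls of the corrected fit were. As the trend was a fixed slope for each group, this was built into the simulation.

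Members and lists were chosen with earlier results of these data known, the correction among them. Named in full are the 12 main chains and any other called member with at least a 2-fold change, with up to 4 called genes of the smallest p from each pathway list. The pathway genes Serpinh1, Creb3l1, Plod2, Lox, Lama2, Postn and Tgfb1 were named outside this rule. Alternatives were RLE and upper-quartile factors, other filters, DESeq2 1.42.0, limma-voom, a threshold of 0.1, other FPKM pseudocounts, a replicate block and each heart left out. No pair of hearts agreed within counting noise. No protein sequences were used here.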

Additional observations from a re-analysis of the deposited data

Results flagged for a closer look

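In 74 groups of hearts (each tested member, the 6 chain ratios and the collagen share of nuclear reads, in WT and in KO hearts), 1 heart stood far from the others of its group in 4, by Dixon's criterion at 95%, which chance alone meets in about 1 of 20 groups. Col1a2 stood at 134.5 CPM in WT heart 3, while the other WT hearts held 78.1 to 93.0 CPM. Col14a1 stood at 4.509 CPM in WT heart 2 and at 7.7 to 8.94 CPM in the others. In KO heart 4, Col16a1 reached 18.9 CPM against 10.2 to 10.6 CPM in the other KO hearts, and Col20a1 reached 4.366 CPM against 2.77 to 2.99 CPM. Both of these KO values lie in the heart that was highest in 25 of the 30 tested members, and WT hearts 2 and 3 are those with the fewest reads. Their part in these values was not tested.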

How the results depend on the processing

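The counts of members called higher (19) and lower (1) were the same with RLE or upper-quartile factors, no filter, DESeq2, limma-voom and a threshold of 0.1. Removing GC and length trends gave 11 higher and 2 lower, and 22 higher among the pathway genes. Leaving out 1 heart gave 17 to 21 higher and 0 to 1 lower members, 30 to 38 higher and 12 to 15 lower pathway genes, and 18 to 20 higher members on FPKM. The lower call, Col6a2, fell to 0 without both shallow WT hearts by edgeR (0 also at an unadjusted p under 0.05). Median-centred FPKM gave 12 higher, and there Col6a6 reversed to -0.01611. Col5a3 reversed to -0.1315 after the correction and -0.1893 with a replicate block added. The Col3a1 to Col1a1 ratio passed only with the correction (0.7917). The collagen share in WT hearts was 0.1562% of all assigned reads.

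The Col6a1 to Col6a2 difference ran from 0.7379 to 1.076 and the Col6a1 to Col6a3 difference from -0.582 to -0.4752 with 1 heart left out. With fewer hearts the smallest exact permutation p is 0.0286 (a WT heart out) or 0.0179 (a KO heart out), and neither ratio passed after adjustment. Replicate numbers are shared by the labels, but same-numbered hearts deviated together by correlations of -0.24 to 0.031, and 1 of 4 WT hearts correlated best with its own number, so the numbers were not taken as pairs. With the replicate block, 18 members were higher and 1 lower, and the 2 ratios were 0.9559 and -0.4796 (exact sign flips, smallest possible p = 0.125). The replicate block with the correction gave 9 higher members and 16 higher and 8 lower pathway genes. Of 1473 values under all alternatives, 1393 kept direction and call, 74 lost the call, 3 gained it and 3 reversed. The causes were not tested.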
